A study of Neotoma stephensi and Rattus norvegicus with 6 samples.

Results

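Small soluble proteins carry fatty acids, retinol, retinoic acid and acyl-CoA esters through the cytosol, and the transcripts of 9 of them were followed in the foregut of woodrats and lab rats. The 9 genes were chosen by symbol (Fabp3, Fabp4, Fabp5, Fabp9, Crabp1, Crabp2, Rbp7, Dbi and Acbd3), and all 9 were found among the 15481 genes with read counts. All 9 also passed the filter of 1 CPM (reads scaled to a common library size of 1000000) in 3 or more animals, which left 12603 genes for testing. The list was drawn up with the species difference of these same animals already known, Fabp5 and Fabp9 being its starting points. Every difference between the species in these 9 genes is therefore a description. Where the false discovery rate (FDR) of the fit over all genes is printed for one of them, it says where the gene fell in that fit and is no independent test.

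Foregut tissue was taken from 3 Stephens' woodrats (Neotoma stephensi), females caught in the wild and fed juniper foliage until dissection, and from 3 Sprague Dawley lab rats (Rattus norvegicus), purchased females kept on rat chow. Each library was polyA RNA from the fornix ventricularis of 1 animal, the nonglandular upper part of the stomach. The sources give no ages, and the labels call all animals virgin, although the methods of the study leave this open for the woodrats. The woodrats were dissected the day after an evening in the laboratory, whereas the lab rats had been housed there for months. Species, diet, origin and time in captivity cannot be told apart in this design. Each animal had between 5439642 and 7932637 reads assigned to mouse genes, and 3 reads corresponded to between 0.355 and 0.586 CPM.

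The fatty acid binding proteins (Fabp), the cellular retinoic acid binding proteins (Crabp) and the cellular retinol binding proteins (such as Rbp2 and Rbp7) belong to one family of intracellular lipid-binding proteins, which fold into a barrel around a single lipid molecule. They keep a hydrophobic lipid in solution, deliver it to enzymes or membranes and, in some cases, carry it into the nucleus to a receptor. Fabp5 is the epidermal and Fabp4 the adipocyte member, Fabp3 is abundant in heart and other muscle, and Fabp9 is known from the testis. Dbi and Acbd3 belong to a separate family that shares a domain for binding acyl-CoA, the activated form of a fatty acid. In stratified squamous epithelium, such as the epidermis and the lining of the rodent foregut, Fabp5 and Crabp2 are known products of the keratinocytes.

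The tissue carried the markers of a keratinized squamous epithelium over smooth muscle in every animal. Summed over the list, suprabasal keratinocyte markers lay between 27430 and 72600 CPM in woodrats and between 88040 and 118600 CPM in lab rats, and 1 of 11 tested markers was higher and 2 were lower in woodrats at an FDR below 0.01. Basal keratinocyte markers summed to between 5328 and 11320 CPM in woodrats and between 4934 and 7323 CPM in lab rats, and 1 of 7 was called, toward woodrats. Smooth muscle markers summed to 125200, 60480 and 40950 CPM in woodrats 1, 2 and 3 and to between 11270 and 20530 CPM in lab rats, and 3 of 9 were called, all toward woodrats. Beside these and the later marker counts, 20.0% of all tested genes were called, 10.3% toward woodrats and 9.71% toward lab rats. Woodrat 1 stood apart with the most muscle and the fewest keratinocyte marker reads of its species. Glandular stomach markers were sparse, with at most 1 read per animal for Pgc, Tff2, Muc6 and Gkn1 and 9 reads for Gkn2 in woodrat 1, and the sum of the list lay between 6.74 and 11.5 CPM in all animals (1 of 2 tested was called, Muc5ac, toward woodrats). Most of this sum was Atp4a, with between 31 and 48 reads per woodrat and between 35 and 67 per lab rat. In whole tissue, fewer cells of a type and less RNA per cell cannot be told apart, so the marker sums are given beside the results they move with.

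**Figure D1:**
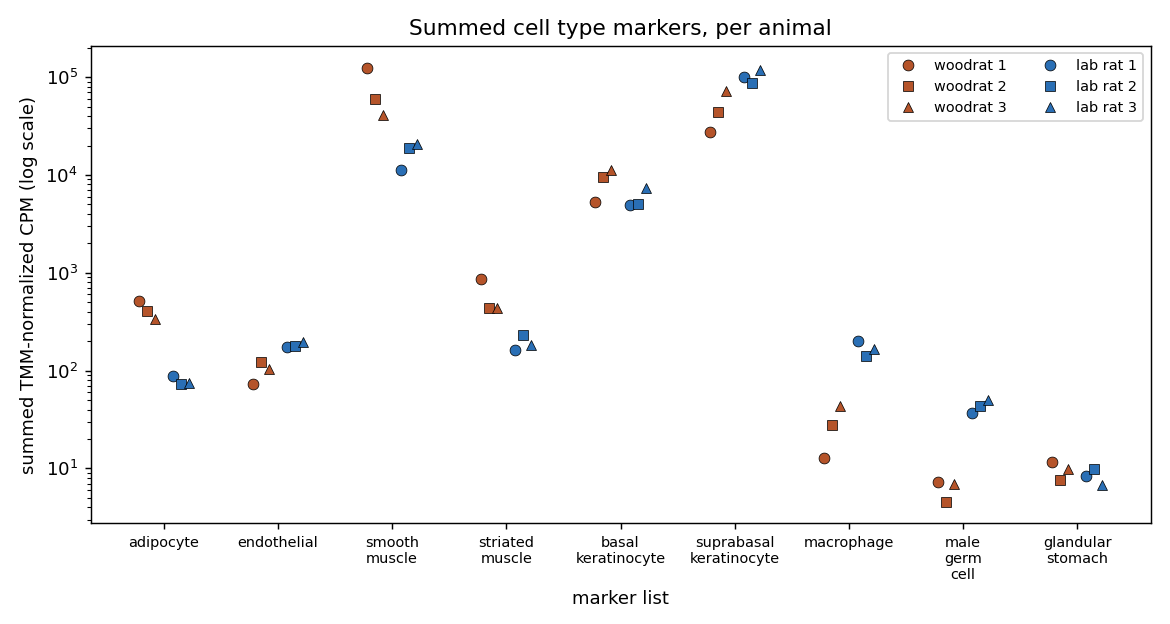
Summed TMM-normalized CPM (log scale) of 9 lists of cell type markers in each of the 3 woodrats and 3 lab rats. Smooth muscle markers were highest in woodrat 1 (125200 CPM) and suprabasal keratinocyte markers were highest in lab rat 3 (118600 CPM), while macrophage and endothelial sums were lower in every woodrat than in every lab rat.

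Fabp9 was the single gene of the 9 whose woodrat levels all lay above the lab rat levels, as in 28.8% of all tested genes. In 6 genes (Fabp5, Fabp4, Crabp2, Crabp1, Rbp7 and Dbi) every lab rat lay above every woodrat, as in 27.4% of all tested genes. In Fabp3 and Acbd3 the values of the species overlapped. In the comparison over all tested genes with edgeR's quasi-likelihood test, 5 of the 9 had an FDR below 0.01, Fabp9 toward woodrats and Fabp5, Rbp7, Crabp2 and Dbi toward lab rats. Over all 12603 tested genes 20.0% were past that threshold (10.3% toward woodrats and 9.71% toward lab rats), and in 56.2% all 3 animals of one species lay above all 3 of the other. Since the genes were picked with this contrast in view, nothing is read from these shares. Fabp9, Rbp7 and Crabp1 passed the filter on low values only through the species in which they are high. The median log2 fold change (woodrat minus lab rat) of the 9 genes was -1.49, against 0.03 for all tested genes.

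**Figure D2:**
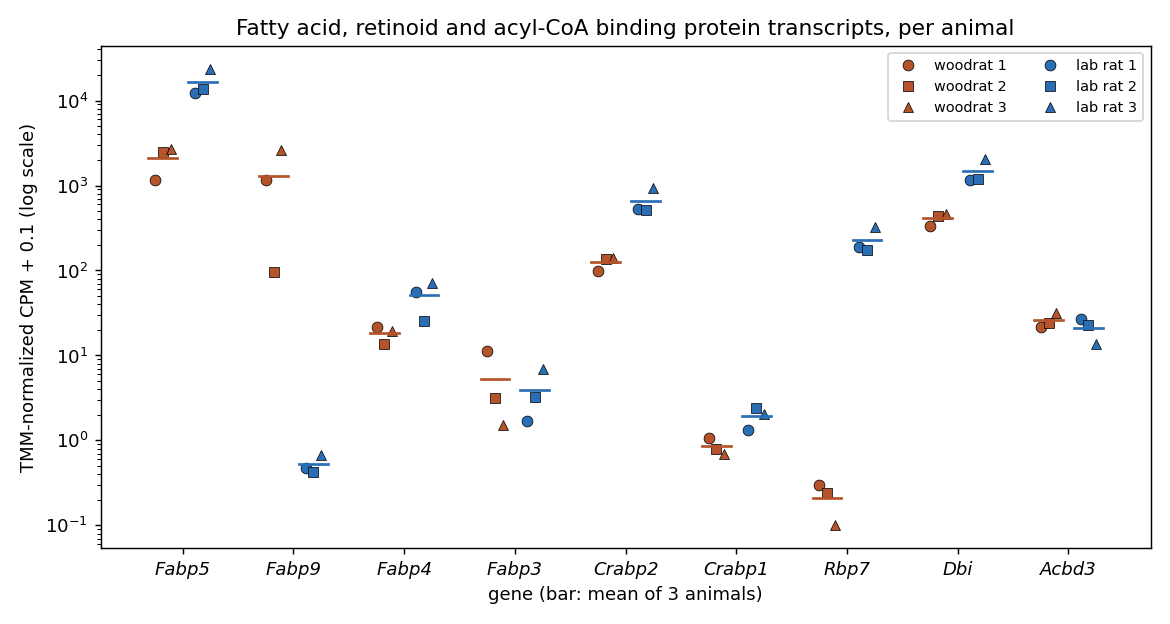
TMM-normalized CPM of the 9 genes in each animal, on a log scale with 0.1 added so that a value of 0 can be drawn; bars mark the mean of 3 animals. Fabp9 and Rbp7 lie at opposite ends of the species difference, and woodrat 2 lies far below the other woodrats for Fabp9 (95.1 CPM).

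Fabp5 (ENSMUSG00000027533.10), the fatty acid binding protein of keratinocytes, was abundant in both species and higher in lab rats. Its levels were 1151, 2497 and 2680 CPM in woodrats 1, 2 and 3, a mean of 2110 ± 835 CPM (SD, n = 3). Lab rats 1, 2 and 3 had 12338.5, 13628 and 23656 CPM, a mean of 16541 ± 6196 CPM (SD, n = 3). The lowest lab rat was well above the highest woodrat. The ratio of the means was 7.84, and the log2 fold change was -2.97 with a standard error of 0.55. Woodrat 1, the library rich in muscle markers, had the lowest Fabp5 level, and without that animal the log2 fold change was -2.68. Set against the suprabasal keratinocyte markers instead of the whole library, it was -2.17, and against the basal keratinocyte markers -3.24. These scaled values have no standard error, and the suprabasal markers themselves went both ways, from 3.34 for Krt4 to -4.96 for Ivl. Of the 11 tested, 7 had negative and 4 had positive log2 fold changes, with a median of -0.59. The part of epithelial makeup in the Fabp5 difference was not tested.

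Fabp9 (ENSMUSG00000027528.11), which is best known as a protein of the sperm head, showed the opposite pattern. The 3 woodrats had 1146, 95.1 and 2651 CPM, whereas the lab rats had between 2 and 3 reads each. The levels of woodrats 1 and 3 were high, that of woodrat 2 was far lower, and even woodrat 2 was above every lab rat. Ratios of summed reads per sequenced depth placed woodrats 3360-fold above lab rats, with a 95% counting interval of 1705 to 7784 that covers counting error only. The woodrat mean was 1297 CPM, but 613 CPM without woodrat 3 and 1853 CPM without woodrat 2, so the size of the ratio depended on which woodrats were included. The highest woodrat exceeded the lowest by 27.9-fold, compared with 2.33-fold for Fabp5 in the same animals.

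The spread of Fabp9 among woodrats was itself unusual for a gene of this abundance. The standard deviation of log2 CPM over the 3 woodrats was 2.49, whereas the median over the 1335 tested genes with a woodrat mean of at least 100 CPM was 0.337. Only 2 of these 1335 genes, the desmosomal cadherins Dsc3 and Dsc1, had a larger spread (2.75 and 2.55). Their order among the animals differed from that of Fabp9. Dsc3 was lowest in woodrat 1 (5.27 CPM) and had 76.8 CPM in woodrat 2 and 228 CPM in woodrat 3. Fabp9 was instead lowest in woodrat 2, an animal between the others in both its smooth muscle and its keratinocyte marker sums.

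Taking Fabp5 and Fabp9 as a pair, woodrats 1 and 3 had nearly equal numbers of reads from both genes. Fabp9 made up 49.9% and 49.7% of the reads of the pair in woodrats 1 and 3 but 3.67% in woodrat 2. In the lab rats there were 3.02, 2.43 and 2.44 Fabp9 reads for every 100000 Fabp5 reads. These genes are close paralogs, and the authors assigned each read to the mouse gene with the best alignment score. The study reported that a phylogenetic analysis of the woodrat Fabp5 and Fabp9 genes established which transcripts had been counted. Whether single reads were exchanged between the genes was not tested here.

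Markers of male germ cells, in which Fabp9 is normally found, were sparse. Of the 12 listed, 3 could be examined, and the protamine and transition protein genes were not analysed here. Ldhc had between 5 and 21 reads per woodrat and between 31 and 37 per lab rat, and Gapdhs between 20 and 33 per woodrat and between 228 and 261 per lab rat. Both were lower in every woodrat than in every lab rat. Among the woodrats both were lowest in woodrat 2, as Fabp9 was, with 1.95, 0.694 and 2.49 CPM of Ldhc and 4.10, 2.78 and 3.91 CPM of Gapdhs in woodrats 1, 2 and 3. Gapdhs, 1 of 2 tested, was called, toward lab rats (FDR = 0.000323, edgeR). Zpbp, a protein of the acrosome region of sperm, had 6, 8 and 5 reads in woodrats 1, 2 and 3 and none in the lab rats. Its reads, unlike those of Ldhc and Gapdhs, were most numerous in woodrat 2. The list summed to between 4.58 and 7.23 CPM in woodrats and between 37.0 and 49.9 CPM in lab rats. All animals were females, and the source of the Fabp9 transcripts in this tissue was not tested.

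Fabp4 (ENSMUSG00000062515.3), the binding protein of adipocytes, macrophages and capillary endothelium, was of low abundance in both species. It had 21.5, 13.5 and 19.3 CPM in the woodrats and 56.5, 25.1 and 70.9 CPM in the lab rats. All 3 lab rats were above the woodrats, but lab rat 2 came close to them. The means were 18.1 ± 4.15 and 50.8 ± 23.4 CPM (SD, n = 3 each), and the log2 fold change of -1.49 (standard error 0.39) missed the FDR threshold. Without lab rat 2 the log2 fold change was -1.82 and the FDR fell below 0.01 (0.00833, edgeR). This was 1 of 6 fits that left out 1 animal, and in the others the FDR lay between 0.0276 and 0.0679.

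Marker sums of cell types that use Fabp4 also differed between the species, though single markers did not all follow. Macrophage markers summed to 12.7, 27.6 and 43.0 CPM in woodrats and to between 143 and 203 CPM in lab rats, with 7 of 9 called toward lab rats and no other call. Endothelial markers summed to between 72.5 and 122.8 CPM in woodrats and between 175 and 194 CPM in lab rats, with 3 of 10 called, all toward lab rats. Over all tested genes 9.71% were called in that direction. Of the adipocyte markers, Plin1 had 2, 1 and 2 reads in the woodrats and 27, 0 and 7 reads in the lab rats, and Adipoq was not analysed here. The adipocyte list as a whole summed to between 337 and 520 CPM in woodrats and between 72.5 and 87.6 CPM in lab rats, mostly through Plin4, its single called gene of 2 tested (toward woodrats). The part of these cell types in the Fabp4 difference was not tested.

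Fabp3 (ENSMUSG00000028773.8), the binding protein of oxidative muscle, was of low abundance, with between 12 and 57 reads per animal, and overlapped between the species. Its levels were 11.1, 3.05 and 1.42 CPM in the woodrats and 1.61, 3.14 and 6.74 CPM in the lab rats. The ranges overlapped throughout, and woodrat 1 was the highest animal. The log2 fold change was 0.43 with a standard error of 0.78, and without woodrat 1 it was -0.75, so that its direction rested on this library. Striated muscle markers were also highest in woodrat 1, where they summed to 862 CPM. Their sums were 439 and 440 CPM in the other woodrats and between 164 and 233 CPM in the lab rats. Of 7 tested, 2 were called, both toward woodrats, against 10.3% of all tested genes called in that direction. Most of the sum in woodrat 1 was Actn2, Ckm and Actn3 (378, 330 and 125 CPM). The list was not uniform. Tnni2 and Ttn were higher in every woodrat than in every lab rat, whereas Myh1, Myh2, Myh4 and Tnnt3, all with few reads, were lower. The part of muscle in the Fabp3 values was not tested.

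Among the retinoid binding proteins, Rbp7 (ENSMUSG00000028996.8) was abundant in lab rats and below the limit of detection in woodrats. Rbp7 is a cellular retinol binding protein found mainly in adipose tissue and vascular endothelium. It had 1, 1 and 0 reads in woodrats 1, 2 and 3, where 3 reads were taken as the limit. The lab rats had 1522, 1060 and 1705 reads, or 189, 175 and 328 CPM. The summed reads per sequenced depth were 2307-fold higher in lab rats, with a 95% counting interval of 638 to 19060. The fitted log2 fold change was -10.96 with a standard error of 0.61, but it was -9.18 with a prior count of 2, because a fitted value for a gene with so few reads depends on that prior. Endothelial markers summed to less in every woodrat than in every lab rat, and the adipocyte list, mostly Plin4, to more, as given above. The part of these cell types in the Rbp7 difference was not tested.

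Crabp2 (ENSMUSG00000004885.5), which passes retinoic acid to its nuclear receptors and is induced in differentiating keratinocytes, was lower in every woodrat. It had 98.2, 137 and 139 CPM in the woodrats and 527, 513 and 933 CPM in the lab rats. The means of 125 ± 22.8 and 657 ± 239 CPM (SD, n = 3 each) differed 5.28-fold. The log2 fold change of -2.40 had a standard error of 0.34. Relative to the suprabasal keratinocyte markers it was -1.59, and relative to the basal markers it was -2.67.

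Its paralog Crabp1 (ENSMUSG00000032291.8) was barely detected, with 5 reads in each woodrat and 10, 14 and 10 reads in the lab rats. This corresponded to between 0.592 and 0.977 CPM in woodrats and between 1.24 and 2.32 CPM in lab rats. The log2 fold change was -1.27 with a standard error of 0.49, and it was not past the threshold. Crabp1 levels this close to 3 reads per library could not resolve a modest difference.

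Dbi (ENSMUSG00000026385.15), the main cytosolic carrier of long-chain acyl-CoA, followed Fabp5 and Crabp2. It had 329, 443 and 458 CPM in the woodrats and 1161, 1183 and 2060 CPM in the lab rats, again without overlap. The means were 410 ± 70.1 and 1468 ± 513 CPM (SD, n = 3 each), and the log2 fold change was -1.84 with a standard error of 0.35. Scaled to the suprabasal keratinocyte markers, the difference was -1.03 on the log2 scale, and scaled to the basal markers it was -2.11. For every Dbi read there were 3.49, 5.64 and 5.86 Fabp5 reads in the woodrats and 10.6, 11.5 and 11.5 in the lab rats. This ratio within an animal does not depend on library scaling, and it was higher in each lab rat than in any woodrat.

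Acbd3 (ENSMUSG00000026499.5), an acyl-CoA binding domain protein of the Golgi, was the most even of the 9 genes. It had 21.7, 24.0 and 31.5 CPM in the woodrats and 26.6, 22.5 and 13.7 CPM in the lab rats. The values were interleaved, and lab rat 3, the highest animal for Fabp5, Fabp4, Rbp7, Crabp2 and Dbi, was the lowest for Acbd3. The log2 fold change was 0.30 with a standard error of 0.32.

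**Figure D3:**
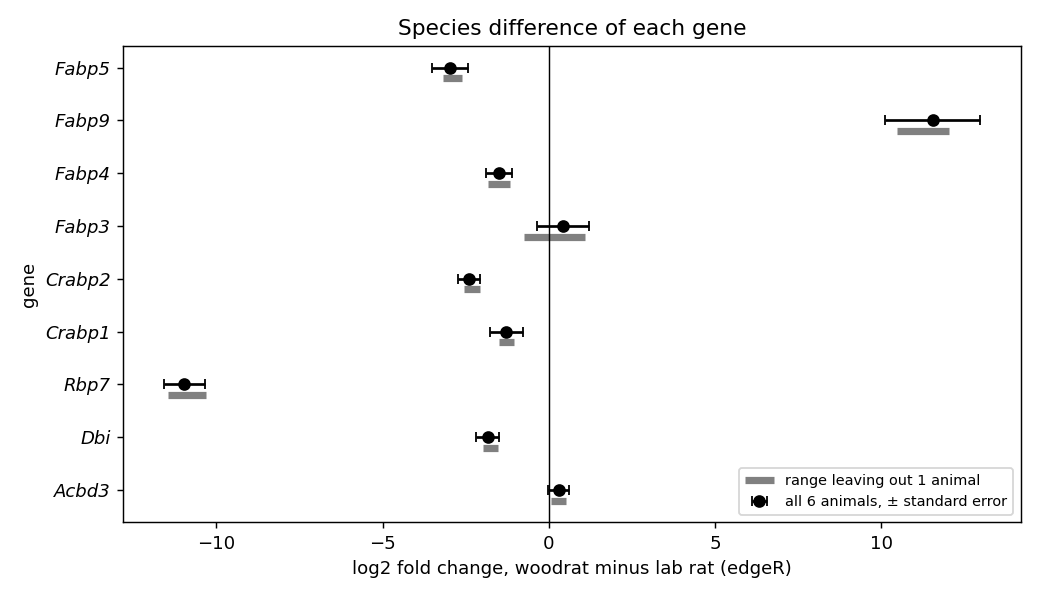
Log2 fold change (woodrat minus lab rat, edgeR) of the 9 genes with its standard error (points and whiskers, all 6 animals) and the range when single animals were dropped, 6 fits in all (grey bars). Fabp9 lies at 11.54 and Rbp7 at -10.96, and the grey bar of Fabp3 crosses 0.

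Which of these genes fell below an FDR of 0.01 depended on the animals included, given here as a description. Rbp7 and Crabp2 were below it whichever animal was left out, and Fabp9 had an FDR of 0.0102 without lab rat 3 (edgeR). Fabp5 was below it without woodrat 3 (FDR = 0.00743), and otherwise had an FDR of 0.0119 without woodrat 1, 0.0244 without woodrat 2, and 0.0116, 0.0120 and 0.0104 without lab rats 1, 2 and 3. Dbi was below it without woodrat 3 (0.00870) or lab rat 3 (0.00859), and had an FDR of 0.0146 and 0.0247 without woodrats 1 and 2 and of 0.0127 and 0.0128 without lab rats 1 and 2. The log2 fold changes ranged from -3.18 to -2.62 for Fabp5, from -2.55 to -2.06 for Crabp2 and from -1.98 to -1.51 for Dbi. That of Fabp9 ranged more widely, from 10.47 without woodrat 3 to 12.04 without woodrat 2.

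Reads of the 9 genes together made up 0.249%, 0.327% and 0.637% of all counted reads in woodrats 1, 2 and 3, and 1.58%, 1.73% and 2.26% in the lab rats. The makeup of these reads was nearly constant in lab rats, where Fabp5 gave 86.3%, 87.6% and 87.4% and Dbi gave 8.12%, 7.61% and 7.61%. Fabp5 gave 41.4%, 77.7% and 44.8% in the woodrats, the lower values being those of the animals rich in Fabp9. Dbi gave 11.8%, 13.8% and 7.65%, and Crabp2 between 2.32% and 4.25% in woodrats and between 3.30% and 3.69% in lab rats. These are shares of reads and not of molecules, since no transcript lengths were used here. Fabp9 did not make up the gap in total fatty acid binding protein reads. The 4 Fabp genes summed to 2330, 2609 and 5352 CPM in woodrats and to 12397, 13656 and 23734 CPM in lab rats.

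**Figure D4:**
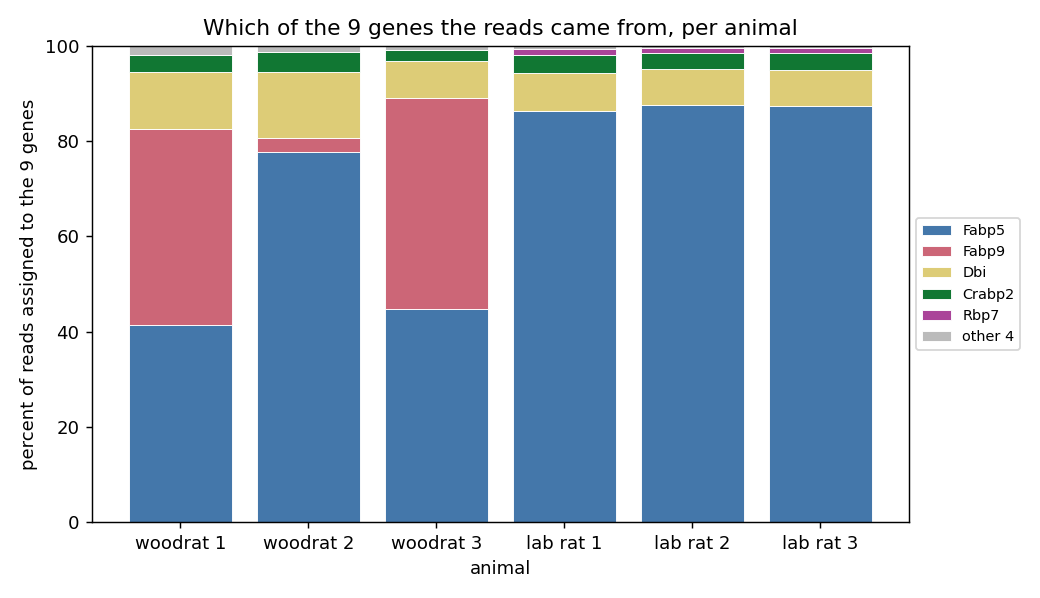
Percent of the reads assigned to the 9 genes that came from each gene, for every animal; Fabp3, Fabp4, Crabp1 and Acbd3 are drawn together. Fabp5 held between 86.3% and 87.6% in lab rats, while Fabp9 held 41.2% in woodrat 1, 2.96% in woodrat 2 and 44.3% in woodrat 3.

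The genes whose levels most resembled those of Fabp5, Fabp9 and Rbp7 over the 6 libraries were found by Pearson correlation of log2 CPM, as a description. For Fabp5 they were Phgdh, an enzyme of serine synthesis (r = 0.9996), Vps53 (r = 0.9992) and Poldip2 (r = 0.9982). The genes closest to Fabp9 were the histone variant H2afb1 (r = 0.9986), Ublcp1 (r = 0.9964) and the secreted mucin Muc5ac (r = 0.9956). H2afb1 had 19, 9 and 35 reads and Muc5ac 17, 12 and 33 reads in woodrats 1, 2 and 3, both lowest in woodrat 2 like Fabp9, and neither had a read in the lab rats. Those nearest to Rbp7 were Trappc2 (r = 0.9994), the immunoglobulin heavy chain Ighm (r = 0.9994) and Guf1 (r = 0.9993). All of these values share the same 6 libraries, which fall into the groups of 3 set by species.

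Other genes that handle fatty acids and retinoids were taken from 6 lists drawn up by function. Of 76 listed genes, 70 were present in the counts and 63 could be tested. At an FDR below 0.01 over all tested genes, 13 were lower in woodrats and 1 was higher, a share of 22.2% against 20.0% for all tested genes. Their median log2 fold change was -0.48, with 41 negative and 22 positive values. Among the called genes, Slc27a6, Slc27a2, Dbil5 and Stra6 passed the filter on low values only through the species in which they are high. Their calls are therefore given as a description.

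In the list of further intracellular lipid-binding proteins, 1 of 3 tested genes was called, toward lab rats (33.3%, against 20.0% of all tested genes). Rbp2, the form known from the absorptive cells of the intestine, had 8.59, 2.50 and 9.12 CPM in the woodrats and 108, 122 and 209 CPM in the lab rats (log2 fold change -4.44, standard error 0.52, FDR = 0.000836, edgeR). It kept an FDR below 0.01 in all 6 fits that left out 1 animal. Like Rbp7, it was lower in every woodrat than in every lab rat. The other 2 tested genes of the list were not past the threshold. Fabp12, another testis-type member, had 1, 1 and 5 reads in the woodrats and 11, 7 and 15 reads in the lab rats (log2 fold change -2.36, FDR = 0.0251), and the liver form Fabp1 had between 6 and 15 reads per animal. Fabp2, Fabp6 and Fabp7 had too few reads to test, and Pmp2 was not analysed here.

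Of 22 tested genes of retinoid supply and metabolism, 4 were lower and 1 was higher in woodrats. This share of 22.7% was near the 20.0% of all tested genes, and the median log2 fold change was -0.38. Adh1, an alcohol dehydrogenase that can oxidize retinol, had 6.45, 27.6 and 14.5 CPM in the woodrats and 505, 269 and 288 CPM in the lab rats (log2 fold change -4.44, standard error 0.56, FDR = 0.00103). Aldh1a2, which makes retinoic acid from retinal, had 1.95, 2.78 and 2.13 CPM in the woodrats and 19.7, 24.1 and 20.4 CPM in the lab rats (log2 fold change -3.21, standard error 0.31, FDR = 0.000485). Rbp4, the carrier of retinol in blood, was lower in woodrats (log2 fold change -2.51, standard error 0.34, FDR = 0.00139), as was the retinol dehydrogenase Rdh10 (log2 fold change -1.73, standard error 0.38, FDR = 0.00833). The calls of Adh1, Aldh1a2 and Rbp4 remained whichever animal was left out, but Rdh10 had an FDR between 0.0178 and 0.0326 in those 6 fits.

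Stra6, the cell surface receptor that takes up retinol from Rbp4, went the other way. It had 9, 34 and 27 reads in the woodrats and 1, 0 and 0 reads in the lab rats, so it was detectable in each woodrat and in no lab rat above 3 reads. The ratio of reads per sequenced depth was 65.0, with a 95% counting interval of 11.3 to 2610, and the FDR was 0.00212 (edgeR). Without lab rats 1, 2 and 3 the FDR was 0.01, 0.0101 and 0.0113.

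The retinoid receptors and response genes held no call among 9 tested with edgeR, where 2 had an unadjusted p below 0.05, and no call with DESeq2 either. Rarg, the retinoic acid receptor prominent in epidermis, had 36.3, 61.1 and 66.3 CPM in the woodrats and between 71.8 and 73.6 CPM in the lab rats (log2 fold change -0.42, standard error 0.27). Rxrb came closest (log2 fold change 0.78, FDR = 0.0205).

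Among the other acyl-CoA binding proteins, 2 of 4 tested were called lower in woodrats (50%, against 20.0% of all tested genes called in either direction). Acbd4 had 29.9, 19.0 and 14.7 CPM in the woodrats and 60.7, 75.6 and 92.6 CPM in the lab rats (log2 fold change -1.85, standard error 0.32, FDR = 0.00336, edgeR). Its FDR was 0.0187 without woodrat 2, 0.0125 without lab rat 2 and 0.0137 without lab rat 3. Dbil5, the testis-type relative of Dbi, had 1 read in each woodrat and 8, 8 and 16 reads in the lab rats, a ratio of 11.5 with a 95% counting interval of 3.59 to 58.6 (FDR = 0.00784). This call was lost in every fit that left out 1 animal, with an FDR between 0.0129 and 0.0320. Acbd6 and Acbd5 had log2 fold changes of -0.88 and -0.60 and were not past the threshold.

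Fatty acid uptake and activation genes were called lower in woodrats in 4 of 11 tested, and no gene of the list was called higher. The share called was 36.4%, against 20.0% of all tested genes. The fatty acid transport protein Slc27a1 had 10.2, 13.2 and 13.1 CPM in the woodrats and 39.3, 35.4 and 31.6 CPM in the lab rats (log2 fold change -1.54, standard error 0.26, FDR = 0.00287, edgeR). Its relatives Slc27a2 and Slc27a6 had 8 and 1 reads in the 3 woodrats together and 44 and 67 in the lab rats, ratios of 5.92 (95% counting interval 2.76 to 14.6) and 72.1 (12.5 to 2890). The acyl-CoA synthetase Acsl5 had 63.1, 96.9 and 79.8 CPM in the woodrats and 183, 178 and 231 CPM in the lab rats (log2 fold change -1.30, standard error 0.26, FDR = 0.00565). Of these 4 calls, Slc27a6 remained in all 6 fits that left out 1 animal. Slc27a1 had an FDR of 0.0132 without woodrat 2 and of 0.0153 and 0.0131 without lab rats 1 and 2, while Acsl5 (0.0118 to 0.0182) and Slc27a2 (0.0102 to 0.0237) were above the threshold in every such fit. Cd36, the scavenger receptor that takes up long-chain fatty acids, did not separate the species (log2 fold change -0.28, standard error 0.29).

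The peroxisome proliferator-activated receptors (PPARs), nuclear receptors to which Fabp4 and Fabp5 can deliver fatty acids, did not differ past the threshold. The log2 fold changes were 1.09 for Ppara, 0.18 for Ppard and -0.67 for Pparg, with standard errors of 0.53, 0.46 and 0.33. Of 14 tested genes in the list of these receptors and their usual targets, 2 were called lower in woodrats and none higher. This share of 14.3% compares with 20.0% of all tested genes called in either direction. Angptl4, a secreted inhibitor of lipoprotein lipase, had 2.93, 6.11 and 6.16 CPM in the woodrats and 14.4, 29.3 and 25.8 CPM in the lab rats (log2 fold change -2.17, standard error 0.41, FDR = 0.00454, edgeR). Acadm, the medium-chain acyl-CoA dehydrogenase, had 93.0, 174 and 194 CPM in the woodrats and 750, 657 and 557 CPM in the lab rats (log2 fold change -2.09, standard error 0.34, FDR = 0.00274). Angptl4 had an FDR of 0.0155, 0.0193 and 0.0182 without woodrat 2, lab rat 2 and lab rat 3, and Acadm of 0.0128, 0.0113 and 0.0106 without woodrat 2, lab rat 1 and lab rat 2. Plin2, the coat protein of lipid droplets, overlapped between the species (log2 fold change -0.03, standard error 0.27).

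**Figure D5:**
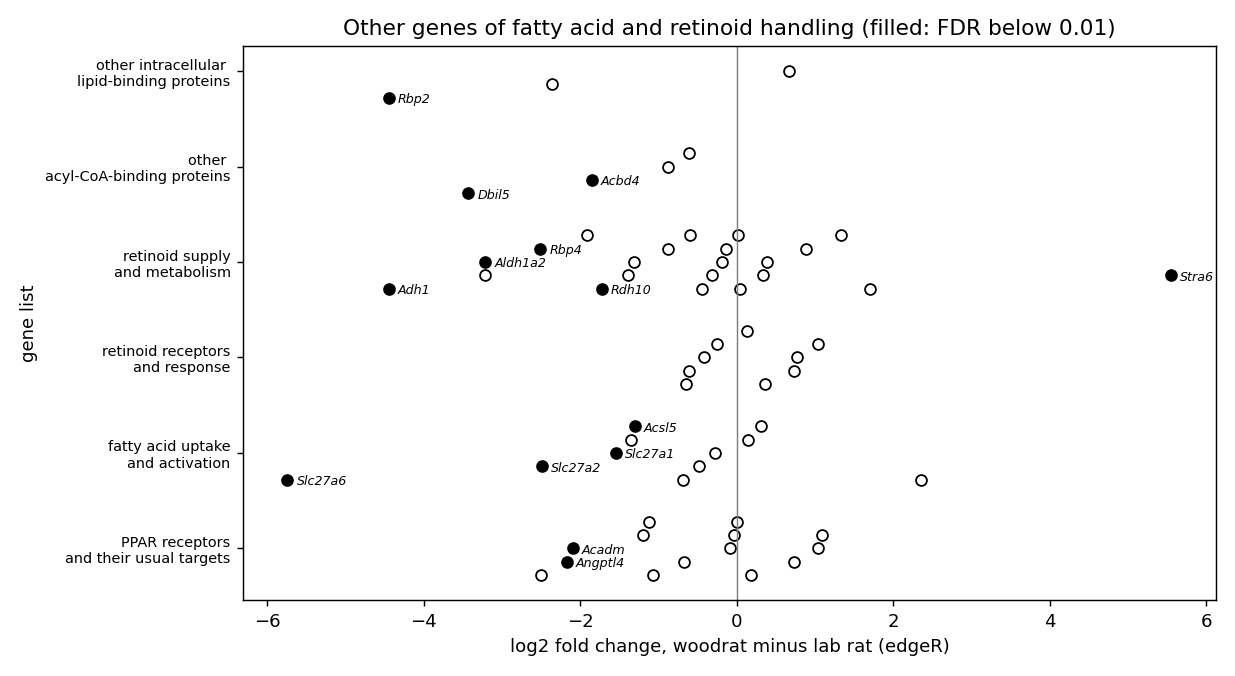
Log2 fold change (woodrat minus lab rat, edgeR) of the 63 tested genes in 6 lists of fatty acid and retinoid handling, with genes at an FDR below 0.01 filled and named. Of the 14 called genes, 13 lie to the left of 0 (lower in woodrats) and Stra6 lies to the right.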

How the data were processed

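PolyA RNA was sequenced in pairs by the authors, who used Trimmomatic for trimming, FLASH to join mates that overlapped and cross_match to place reads on the coding transcripts of mouse (GENCODE M7), and deposited raw counts of uniquely assigned reads per mouse gene for each animal. The submitters' processing notes name the build mm9. Tool versions are not given in the sources used here. Reads of woodrats, lab rats and paralogs can differ in how well they match mouse sequences, which can affect levels compared between species. Every gene in these files has woodrat reads, so genes seen in lab rats alone are not analysed here.

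The filter required 1 CPM or more in 3 or more animals. TMM scaling and the quasi-likelihood test (legacy method, species as the only term, prior count 0.125, Benjamini-Hochberg adjustment, FDR below 0.01, as in the study) were computed with edgeR 4.0.16 in R 4.3.3. CPM values are TMM-normalized. Standard errors are the log2 fold change divided by the square root of F. Counting intervals are exact 95% binomial intervals of summed reads and cover counting error only. Scripts were tested on simulated data. Alternatives were other filters, scalings and estimation settings, DESeq2 1.42.0, the replicate number as a block, and each animal left out. Scaling to keratinocyte markers (subtracting the mean log2 fold change of the list), and leaving out woodrat 1 with lab rat 3, were added after seeing the data.

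The 9 genes and all lists were chosen with earlier results of these data known. Named genes are the 9 genes, from each list up to 4 called genes in each direction by size, and the 3 genes most correlated (log2 CPM, prior count 2) with Fabp5, Fabp9 and Rbp7. Other genes are named as examples chosen after their values were seen. No sequences or gene positions are given, since no reference was used here. 1 further gene of the wider lists is not reported here.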

Additional observations from a re-analysis of the deposited data

How the results depend on the processing

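The number of the 9 genes past the threshold was 5 in the main comparison, between 3 and 5 when 1 animal was left out, 6 under DESeq2 (Fabp4 was added) and 3 with the replicate number as a block, where Fabp5 (FDR = 0.0209) and Dbi (FDR = 0.0220) were no longer called (edgeR). The replicate block lowered the count over all genes from 2516 to 716 and that over the wider lists from 14 to 6. The numbers did not pair the animals: the deviations of equally numbered animals from their species means correlated at -0.289, -0.0881 and -0.279, and no animal correlated best with its own number. DESeq2 called 3916 genes. Leaving out 1 animal gave between 898 and 2626 calls over all genes and between 5 and 14 over the wider lists, the counts being lowest without woodrat 2 (898 and 6) or lab rats 1 (936 and 7), 2 (1050 and 5) and 3 (1305 and 7). The causes of these shifts were not tested, although each such fit has fewer animals. Without both woodrat 1 and lab rat 3, 4 of the 9 genes were called (Fabp5, Rbp7, Crabp2 and Dbi), and Fabp9 had an FDR of 0.0111. Under the other filters, scalings and estimation settings the count stayed at 5, with the same genes. With a filter of 5 CPM in 3 or more animals, 7 of the 9 were tested, without Fabp3 and Crabp1. No called gene of the 9 or of the named wider genes reversed its direction under the filters, scalings, estimation settings, block or single animals left out. The log2 fold change of Rbp7 ranged from -11.46 to -9.18. At 3 or fewer reads per library, Fabp9 in lab rats and Rbp7 in woodrats could not be measured precisely. Neither could Crabp1, with 5 reads in each woodrat and between 10 and 14 in the lab rats.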
